A study of Arabidopsis thaliana with 20 samples.

Results

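A group of 102 genes, each carrying a locus code in place of a symbol in the annotation used here, held nearly level on average for 3 days after synchronous flower formation began and was higher by day 5. They were 102 of 15542 locus-named genes and of 28634 features measured (genes, and probes without a gene name). The tissue was the inflorescence of Arabidopsis thaliana plants of the genotype 35S:AP1-GR ap1 cal. Both AP1 and CAL, which specify floral meristems, are mutant in these plants, and a transgene expresses an AP1-glucocorticoid receptor fusion from 35S, a promoter active in most tissues. All plants received 1 µM dexamethasone, which sends the fusion protein to the nucleus. No plants without it were analysed here, so effects of AP1, of treatment and of time cannot be told apart. About 25 plants gave the pooled tissue of a time point, cut near the inflorescence surface so that it is rich in meristem cells. The time points were days 0, 1, 2, 3, 4 and 5, and 20 two-colour microarrays each compared consecutive days of 1 of 4 tissue sets, 4 arrays for each interval. Nothing in the labels says whether the sets came from separate plants, so p-values measure the spread between these sets, which may be technical. In whole tissue, more cells that express a gene and more RNA per cell cannot be told apart.

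The dexamethasone-treated ap1 cal inflorescence is a standard source of young flowers of nearly equal age. As background, AP1 turns the inflorescence-like meristems of these plants into floral meristems, sepals are set off first, and petals, stamens and carpels follow before their tissues begin to differentiate. For 101 of the 102 genes the RefSeq gene table of TAIR10.1, used for names alone, lists no name beyond a locus or clone code, so no role is given for them here. The exception is AT5G09780, with the synonym REM25 (reproductive meristem 25). REM genes encode DNA-binding proteins with B3 domains, and several are active in reproductive meristems. In the table, 101 of the genes are protein-coding and 1, AT4G04130, is a pseudogene. No gene or probe sequences were used here, and none are printed.

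Each value is a log10 ratio, later day over earlier day, and d1 to d5 stand for the 5 intervals in order. A value of 0.30 is 2.00-fold. The log base is the likely one, for a reason given with the processing. The direction rests on an assumed channel order, and with the other order every rise here would be a fall. The genes were chosen on these same ratios, averaged over the 4 sets. Their d1 and the sum d2+d3 had to lie between -0.2 and 0.2. The sum d4+d5, which is day 5 over day 3, had to be at least 0.3 and above 0 in all 4 sets, with no single value at the scale's limits of 2 and -2. A further 10 locus-named genes were left out by name. These values therefore describe the genes and carry no test. Of 15532 genes entering the choice, 14516 had no value at a limit, 13507 of these were within both early bounds, 1377 of these had d4+d5 above 0 in every set, and 102 reached 0.3. Another 13 genes reached 0.3 on average but not with 4 sets above 0. Mirrored conditions, with d4+d5 at most -0.3 and below 0 in all sets, were met by 21 locus-named genes.

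The sum d4+d5 of the 102 genes ran from 0.301 to 1.19 with a median of 0.41, that is from 2.00-fold to 15.5-fold with a median of 2.55-fold. It was at least 0.4 in 52 genes, at least 0.5 in 32, at least 0.7 in 13 and at least 1 in 3. The threshold cuts through a continuous range. Just inside it were AT3G50730 (0.301 ± 0.119, SD, n = 4), AT5G31412 (0.301 ± 0.113) and AT5G47050 (0.304 ± 0.0833). Just outside were AT2G03020 (0.299 ± 0.154), AT5G03120 (0.297 ± 0.119) and AT1G16960 (0.297 ± 0.162), which met every other condition. These genes differ from each other by far less than the SD over sets.

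**Figure D1:**
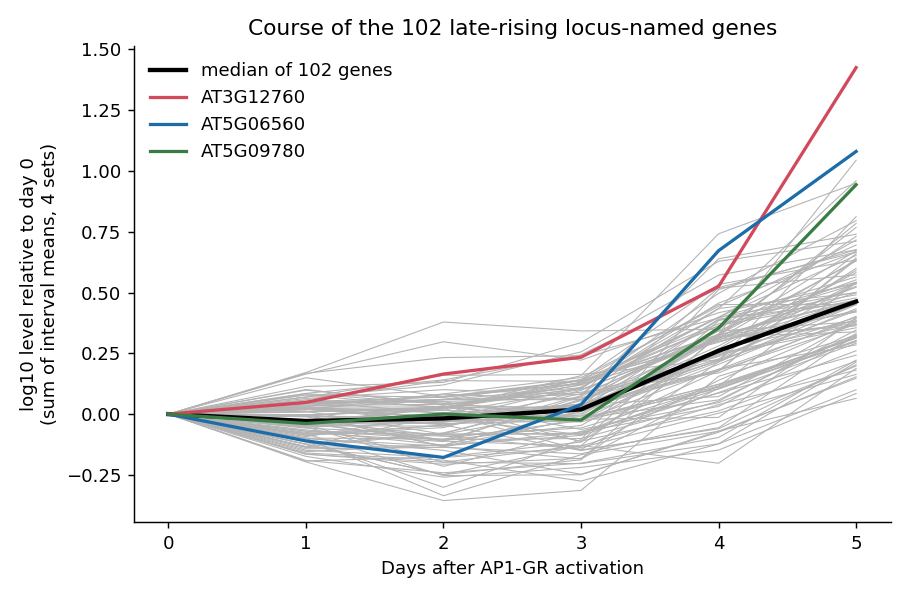
Level of each of the 102 genes relative to day 0 (log10, sum of interval means over 4 sets) against days after AP1-GR activation. Grey lines are single genes, the black line their median, and 3 of the largest rises are coloured. The median lies at 0.019 on day 3, and the lines turn upward after it, as the choice of genes requires.

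The tissue sets were not alike in spread. Over all features the interquartile range of d4+d5 was 0.183 in set 3 and 0.147, 0.153 and 0.141 in sets 1, 2 and 4. Among the 102 genes the median of d4+d5 was 0.36, 0.30, 0.56 and 0.45 in sets 1 to 4, against medians of all features between -0.0085 and 0. Set 3 gave the highest of the 4 values in 59 genes, and set 2 the lowest in 49. The wider spread of set 3 thus moved with the size of the rise there, and its part in the result was not tested. With every array scaled to 1 spread the conditions were met by 110 genes, 92 of them among the 102. On the array side, each of the 20 arrays gave between 30142 and 30180 probe values, and the number of arrays limits the precision. Of the markers of the labelled tissue, 5 of 6 inflorescence meristem genes were measured and 3 fell from day 3 to day 5, AGL71, AGL72 and FD. Of 9 floral organ genes 5 were measured, and NGA3, which acts in gynoecium development, rose (d4+d5 of -0.47, -0.43, -0.27 and 0.67). The adjusted p-values of limma were 0.000794, 0.00167, 0.0472 and 4.75e-05, and the block on sets moved that of FD to 0.103. RBE and UFO, which act in petal development, fell, with -0.46 and -0.42 (adjusted p = 0.00208 and 0.000902).

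The largest value belonged to AT3G12760. Its d4+d5 measured 0.83, 0.85, 1.49 and 1.60 in sets 1 to 4, a mean of 1.19 ± 0.412 (SD, n = 4) or 15.5-fold. Sets 3 and 4 stood well above sets 1 and 2, so the size of the rise varied more between sets than that of any of the other 11 genes described next. AT3G56260 showed the same division, with 0.80, 0.65, 1.47 and 1.32 and a mean of 1.06 ± 0.394 (11.5-fold). AT5G06560 was as high but steady, with 1.06, 1.06, 0.95 and 1.09 (1.04 ± 0.0615, 11-fold), and its 4 sets lay within a narrow band. The B3-domain gene AT5G09780 (REM25) measured 1.11, 0.93, 0.72 and 1.11 (0.97 ± 0.184, 9.29-fold), with set 3 the lowest. In REM25 the last interval was the larger on average, with d4 of 0.45, 0.21, 0.19 and 0.66 and d5 of 0.66, 0.72, 0.54 and 0.45, although the difference was not called (adjusted p = 0.543, limma).

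AT4G23680 measured 0.83, 0.59, 1.26 and 1.14 (0.96 ± 0.302, 9.02-fold) and AT3G62820 0.83, 0.62, 1.16 and 1.04 (0.91 ± 0.239, 8.2-fold). In both genes set 2 was the lowest and set 3 the highest. AT4G28780 measured 0.62, 0.51, 1.11 and 1.26 (0.88 ± 0.368, 7.51-fold), and the values of sets 3 and 4 were again the high ones. AT4G19380, with 0.80, 0.66, 1.17 and 0.53 (0.79 ± 0.278, 6.18-fold), was high in set 3 alone. AT4G14090 was among the steadiest, with 0.76, 0.87, 0.76 and 0.74 (0.78 ± 0.0575, 6.03-fold), and set 2 its one higher value. AT1G33811 measured 0.69, 0.55, 0.76 and 1.08 (0.77 ± 0.225, 5.9-fold), with set 4 above the rest. AT1G06640 and AT1G34580 completed the 12 largest, with 0.51, 0.69, 0.80 and 0.88 (0.72 ± 0.158) and 0.76, 0.60, 0.85 and 0.67 (0.72 ± 0.11). In each of these 12 genes the lowest set still lay above 0.5, well above the threshold set on the mean.

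**Figure D2:**
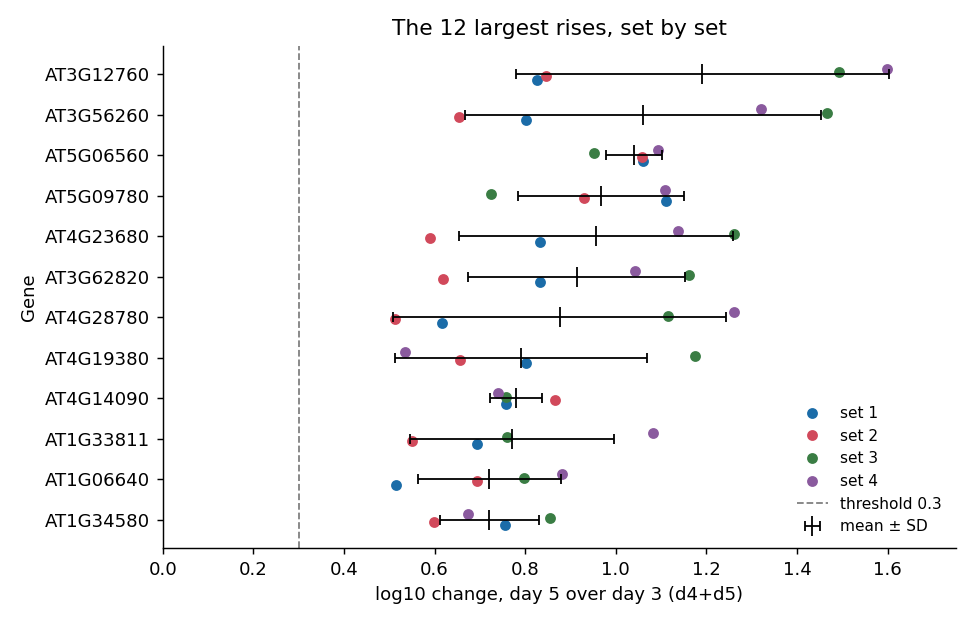
Change from day 3 to day 5 (d4+d5, log10) of the 12 genes with the largest mean, by tissue set. Coloured points are the 4 sets, the vertical tick and bar the mean ± SD, and the dashed line the threshold of 0.3. AT5G06560 and AT4G14090 have their sets close together, while AT3G12760 and AT3G56260 split into sets 1 and 2 against sets 3 and 4.

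The next 8 genes by size, named after their values were seen, had d4+d5 between 0.62 and 0.71. AT1G12080 led them with 0.58, 0.40, 0.95 and 0.90 (0.71 ± 0.262), and set 2 was its low value. AT3G57600 was the steady one, with 0.76, 0.64, 0.65 and 0.71 (0.69 ± 0.0555). AT3G56220 and AT1G70270 each had 1 high set, set 3, with 0.60, 0.52, 1.099 and 0.43 in the first and 0.72, 0.49, 1.03 and 0.39 in the second. AT5G50130, with 0.52, 0.47, 0.91 and 0.71, was also highest in set 3. AT1G48660 went against this order, with 0.79, 0.79, 0.54 and 0.44, since sets 1 and 2 were its high ones. The remaining genes of the 8 were AT4G23670, described with its neighbour, and AT2G39690, with 0.53, 0.43, 0.66 and 0.87 (0.62 ± 0.194) and its high value in set 4.

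The spread over sets differed widely between genes. The SD of d4+d5 ran from 0.0397 to 0.469 with a median of 0.175, was under 0.1 in 19 genes, and was larger than 50% of the mean in 24. The lowest of the 4 sets reached at least 0.3 in 38 genes and at least 0.1 in 95. Chosen after their values were seen as the extremes of this range, AT4G16050 was the steadiest, with 0.60, 0.55, 0.52 and 0.51 (0.54 ± 0.0397), and AT4G06490 the most variable, with 1.02, 0.027, 0.22 and 0.049 (0.33 ± 0.469). In AT4G06490 set 1 is far above the rest, and sets 2 and 4 are close to 0. The pseudogene AT4G04130, named for its type, measured 0.43, 0.18, 0.52 and 0.12 (0.31 ± 0.194). Its whole increase lay in the first of the 2 intervals, with a mean d4 of 0.31 ± 0.074 and a mean d5 of 0.00037 ± 0.132.

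The early course was level on average but not in every set. Over 4 sets the mean d1 ran from -0.20 to 0.17 and the mean of d2+d3 from -0.18 to 0.20, within the bounds the choice set. In single sets d1 of these genes ran from -0.70 to 0.45. Only 27 of the 102 genes had both d1 and d2+d3 within 0.2 of 0 in each of the 4 sets. For the other 75, the flat early course is a property of the mean. From day 0 to day 3 the mean change ran from -0.31 to 0.34 with a median of 0.019, and from day 0 to day 5 from 0.065 to 1.42 with a median of 0.46. The early bounds add up, so the mean of a gene could move before day 3 by more than the 0.3 set for the rise. AT5G52390, chosen after its values were seen, had a d1 of 0.17 and a d2+d3 of 0.17, beside a d4+d5 of 0.39. Such genes were not level before day 3. Day 5 was above day 0 in all 4 sets in 92 genes, and in 10 it was not. The largest step of the course was d4 in 49 genes, d5 in 53 and an earlier interval in 0. These counts follow in large part from the choice, which bounded the early change and required a late rise.

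The course between days 1 and 3 can be described by d3-d2, the change from day 2 to day 3 less that from day 1 to day 2. The choice bounded the sum of these intervals and left their difference free. With the sum held near 0, a d3-d2 above 0 can be a fall and a return. AT4G14090, with a mean d2 of -0.19 and a mean d3 of 0.20, is an example named after its values were seen. The measure therefore cannot show whether a rise had begun before day 3. Its median was 0.052 over the 102 genes and 0.00062 over all features, and it was above 0 in 75 of 102 genes (73.5%) against 50.4% of all features. In sets 1 to 4 the median d3 of the 102 genes was 0.024, 0.062, 0.015 and 0.10. Their median d2 was 0.028, -0.016, -0.0043 and -0.032. The gap between these medians was widest in sets 2 and 4, which share a dye layout, and absent in set 1. In limma 0 of the 102 genes passed the test (lowest adjusted p = 0.358). An unadjusted p below 0.05 was reached by 11 of the 102 genes, all of them with d3 the larger. It was reached by 8.54% of all features, 4.62% with d3 the larger and 3.92% with d2 the larger. After adjustment few features passed in the background too, with 0.0175% of all features called (0.014% above 0 and 0.00349% below). Without set 3, 1 of the 102 genes and 142 features were called. The arrays of d3 and d4 share the RNA of day 3, so d3-d2 is not fully independent of the choice.

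The division of the rise between its 2 intervals was also left free by the choice, which used their sum. The medians of d4 and d5 were both 0.21. The share of d4+d5 that fell to d4 ran from -23.0% to 99.9% with a median of 48.6%. In 25 genes d4 made up at least 66.7% of the sum, in 20 genes at most 33.3%, and in 57 the interval shares were closer to even. Both d4 and d5 were above 0 in all 4 sets in 48 genes, and d4 was so in 80 and d5 in 64. The median d4+d5 in these classes was 0.39, 0.42 and 0.40.

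The 3 largest sums of each class, named after their values were seen, give examples. Among genes whose change lay mostly between days 3 and 4, AT4G19380 measured 0.58 ± 0.239 in d4 and 0.21 ± 0.16 in d5 (SD, n = 4), AT4G14090 0.62 ± 0.175 and 0.16 ± 0.179, and AT3G56220 0.56 ± 0.145 and 0.10 ± 0.241. In each of them d4 was the larger in 4 of 4 sets. Among genes whose change lay mostly between days 4 and 5, AT3G12760 measured 0.29 ± 0.421 in d4 and 0.90 ± 0.295 in d5, AT3G56260 0.35 ± 0.271 and 0.71 ± 0.3, and AT1G33811 0.18 ± 0.194 and 0.59 ± 0.0909. The last had the larger d5 in 4 of 4 sets, and the other 2 in 3. Among genes in which neither interval made up 66.7%, AT5G06560 measured 0.63 ± 0.17 and 0.41 ± 0.145, AT5G09780 0.38 ± 0.223 and 0.59 ± 0.121, and AT4G23680 0.52 ± 0.176 and 0.44 ± 0.203. In AT4G23680 the difference between the intervals is smaller than either SD.

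Tested as d5-d4 in limma over all features, 3 of the 102 genes (2.94%) had a called difference between the intervals, against 0.0279% of all features (0.0105% with the larger d5 and 0.0175% with the larger d4). The 8 features called in all include these 3. The choice took genes with large sums, which a background feature need not have, so the shares are set side by side without a test. Of the 102 genes, 40 had an unadjusted p under 0.05, of which 19 had the larger d5 and 21 the larger d4. Over all features the share was 8.87%, with 3.68% for the larger d5 and 5.18% for the larger d4. The change was larger after day 4 in AT5G23970 and AT1G07473 and larger before day 4 in AT1G48660.

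AT5G23970 was near 0 from day 3 to day 4, with d4 of 0.037, -0.11, 0.028 and 0.077 in sets 1 to 4. Its d5 measured 0.31, 0.34, 0.48 and 0.51, and the 2 ranges did not overlap. The difference d5-d4 was 0.40 ± 0.0529 (SE, adjusted p = 0.0253), with d5 the larger in 4 of 4 sets. AT1G07473 had d4 of -0.13, -0.087, -0.036 and -0.036, just under 0 in every set, and d5 of 0.24, 0.29, 0.58 and 0.45. Its difference was 0.46 ± 0.07 (adjusted p = 0.0307), again in the same direction in 4 of 4 sets. AT1G48660 went the other way, with d4 of 0.50, 0.55, 0.42 and 0.50 and d5 of 0.29, 0.24, 0.12 and -0.061. Its ranges did not overlap either, and the difference was -0.35 ± 0.0534 (adjusted p = 0.0307, and 0.147 in the fit that blocks on sets).

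These 3 calls rest on the pooled spread of all 20 arrays. Both arrays of a difference share the RNA of day 4. A fit to the 4 within-set differences, which allows for that, called 0 features in limma (922 had an unadjusted p below 0.05). It gave adjusted p = 0.987 for each of the 3 genes (unadjusted p = 0.0019 for AT5G23970, 0.0023 for AT1G07473 and 0.0064 for AT1G48660). A mean and a dye term fitted to 4 values leave little power over all features, so this fit cannot decide on the differences. Leaving out set 1, 2, 3 or 4 also ended all 3 calls (adjusted p between 0.0757 and 0.378), while the differences stayed between 0.36 and 0.50 in the later genes and between -0.41 and -0.28 in AT1G48660 over all alternatives. Among the 12 largest rises none was called, the difference of AT3G12760 measuring 0.61 ± 0.137 (adjusted p = 0.174), that of AT1G33811 0.41 ± 0.0814 (adjusted p = 0.126) and that of AT4G14090 -0.45 ± 0.124 (adjusted p = 0.324). In AT3G12760 d4 was -0.0034, 0.094, 0.16 and 0.91, so that only set 4 was high by day 4.

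**Figure D3:**
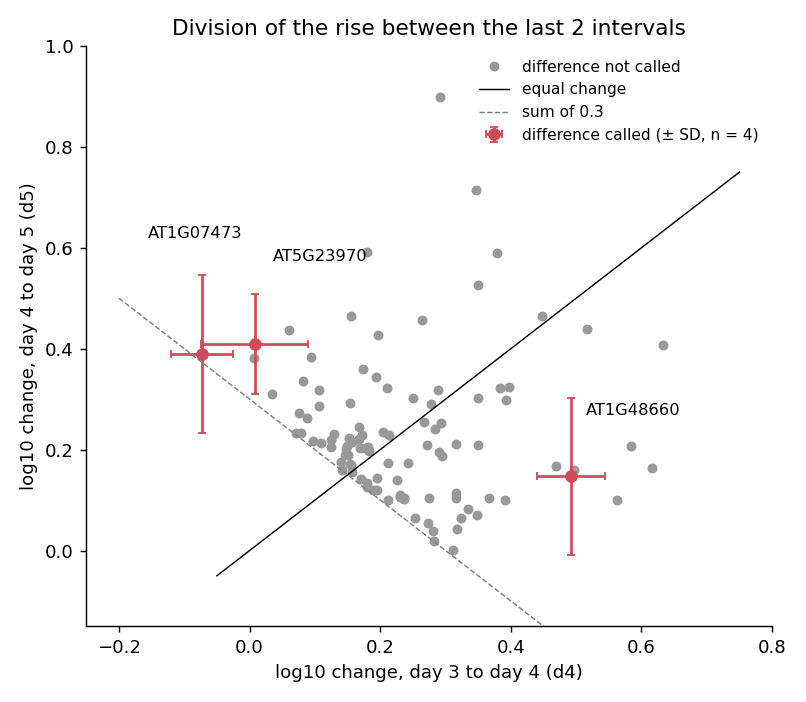
Mean change from day 4 to day 5 against mean change from day 3 to day 4 (both log10) for each of the 102 genes. Points on the solid line changed equally in both intervals, and the dashed line marks the sum of 0.3 set by the choice. The 3 red genes, with SD over 4 sets, had a called difference: AT5G23970 and AT1G07473 lie near 0 on the horizontal axis and AT1G48660 far to the right.

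The same conditions were also applied to 3 sets, and d4+d5 was read in the fourth, which was not used to pick the genes. The conditions themselves were set with earlier results of these data known, and the sets may be technical repeats. The shares that follow are therefore descriptive and do not show independent replication. With sets 1, 2, 3 and 4 left out in turn, 127, 138, 98 and 116 genes were chosen, of which 88, 91, 67 and 85 are among the 102. In the set left out 95.3%, 88.4%, 85.7% and 95.7% of them were above 0, against 48.4%, 49.9%, 46.1% and 47.1% of all features. Their medians there were 0.28, 0.24, 0.46 and 0.36, beside 0.40, 0.40, 0.37 and 0.38 in the sets that chose them. The rise was thus smaller in left-out sets 1, 2 and 4 than in the choosing sets, and larger in set 3, the set with the widest spread. At least 0.3 was reached by 45.7%, 37.0%, 63.3% and 61.2% of the genes, against 3.83%, 3.45%, 6.41% and 4.01% of all features. Single genes went far the other way, AT4G14650 with -1.67 in set 1 and AT2G06950 with -1.73 in set 2. They are named after their values were seen, and neither belongs to the 102.

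**Figure D4:**
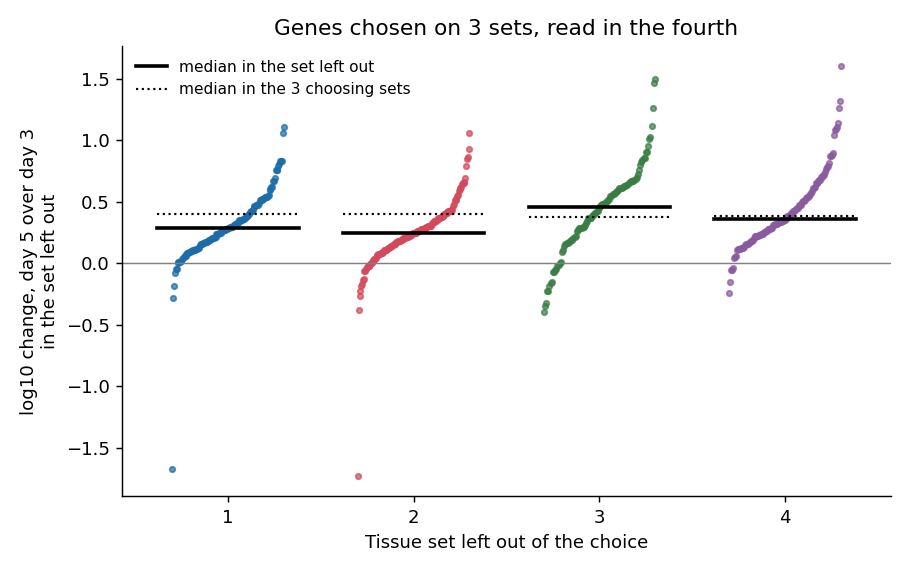
Change from day 3 to day 5 (log10) in the tissue set left out, for genes that met the conditions in the other 3 sets. Each point is a gene, ordered by value, the solid bar the median in the set left out and the dotted bar the median of the same genes in the choosing sets. Most points lie above 0 in each set, and the solid bar is lower than the dotted one except in set 3.

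Within each tissue set d4 and d5 had opposite dye assignments, so a constant dye effect cancels in d4+d5. A dye coefficient was called in 17 of the 102 genes (16.7%), against 28.9% of all features, and genes with a value at the scale's limit were barred from the group. Without set 1, 2, 3 or 4 the call was made in 2, 7, 27 and 2 of the genes and in 3721, 4318, 10081 and 3775 features, so these counts depend on single sets. Of the 12 largest sums, AT3G12760, AT3G62820 and AT4G28780 carried such a call (adjusted p = 0.0465, 0.0243 and 0.045). The median size of the coefficient was 0.032 in the genes and 0.034 over all features. AT5G02940, chosen after its values were seen for the largest dye coefficient of the group (-0.22 ± 0.0508, SE, adjusted p = 0.00436), had uneven intervals. Its d4 measured 0.60, -0.20, 0.021 and -0.071 and its d5 -0.42, 0.57, 0.49 and 0.41, so set 1 lay far from the others in both intervals. Sets 1 and 3 have the same dye layout. By sign, d4 was above 0 in sets 1 and 3 and below 0 in sets 2 and 4, while d5 was below 0 in set 1 alone. The cause of this pattern was not tested. The sums, 0.18, 0.37, 0.52 and 0.34, were much closer together.

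Of the 102 genes 99 were measured by 1 probe and 3 by a pair of probes, and in each of the 3 the probes differed. The probes of AT3G23480 had d4+d5 of 0.95 ± 0.315 and 0.12 ± 0.0565 (SD, n = 4), both above 0 in 4 sets. Those of AT4G26540 measured 0.59 ± 0.19 and 0.25 ± 0.245, the second above 0 in 3 sets. Those of AT3G26960 measured 0.72 ± 0.171 and 0.11 ± 0.0645. When every probe had to meet the conditions, all 3 of these genes dropped out and 99 remained. The higher probes of AT4G26540 and AT3G26960 had d2+d3 of 0.25 and 0.22, beyond the early bound, so those genes entered through the mean of their probes. A single probe thus stands behind nearly all values given here, and for those genes no such comparison could be made.

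Some of the genes lie next to each other. In the order of the RefSeq table, 8 pairs of the 102 were at most 5 genes apart. The share of such pairs among all measured genes was not computed, so the count cannot be called high or low. The pairs AT4G23670 with AT4G23680 and AT5G62350 with AT5G62360 were direct neighbours, and AT1G28590 with AT1G28600 and AT3G09440 with AT3G09450 had 1 gene between them. AT1G10610 with AT1G10640 and AT3G56220 with AT3G56260 had 3 between them, and AT4G01130 with AT4G01180 and AT4G14060 with AT4G14090 had 4. Whether probes of neighbouring genes share sequence was not tested.

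Neighbours did not always share size or timing. AT4G23670 measured 0.34, 0.66, 1.03 and 0.51 in sets 1 to 4 (0.64 ± 0.296), below AT4G23680 in sets 1, 3 and 4 and above it in set 2. Its d4 was nearly the same in every set, 0.45, 0.47, 0.47 and 0.48, while its d5 ran from -0.11 to 0.56. AT5G62350 measured 0.36, 0.35, 0.35 and 0.22 (0.32 ± 0.0683) and AT5G62360 0.46, 0.37, 0.48 and 0.62 (0.48 ± 0.103). AT5G62350 was the lower of the pair in every set. In AT3G56220 most of the sum fell to d4 (0.56 ± 0.145, against 0.10 ± 0.241 for d5), while in AT3G56260 d5 was the larger (0.71 ± 0.3, against 0.35 ± 0.271 for d4). AT1G28590 and AT1G28600 were close, with 0.36 ± 0.101 and 0.44 ± 0.236, as were AT3G09440 and AT3G09450, with 0.32 ± 0.0992 and 0.31 ± 0.202. AT1G10610 measured 0.37 ± 0.185 through a high set 1 (0.65) and AT1G10640 0.34 ± 0.229. AT4G01130 and AT4G01180 measured 0.45 ± 0.164 and 0.31 ± 0.153, and AT4G14060 0.52 ± 0.112.

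**Figure D5:**
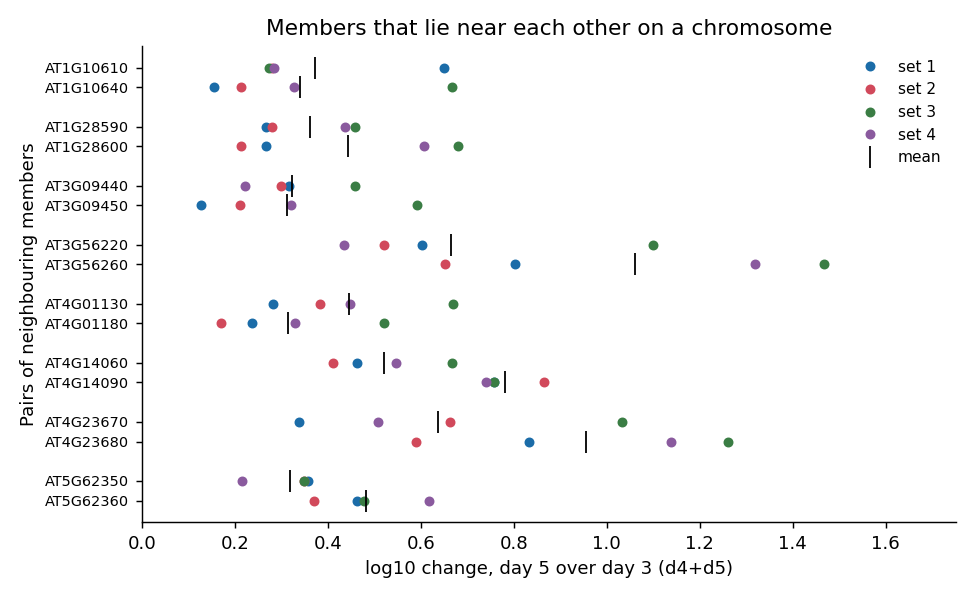
Change from day 3 to day 5 (log10) of the 8 pairs of genes that lie at most 5 genes apart, with the pairs set apart by gaps. Coloured points are the 4 tissue sets and ticks the means. AT5G62350 lies below AT5G62360 in each set, and the means of AT3G09440 and AT3G09450 nearly coincide.

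Of the protein-coding genes directly flanking the 102, 133 were measured, 8 of which belong to the group. Among the other 125 the median d4+d5 was -0.0011, beside -0.0057 over all named genes. By limma 1 of these 125 (0.8%) was higher on day 5 than on day 3 and 1 was lower, against 1.48% of named genes called higher. These were AT4G24130, beside AT4G24140, with 0.28 (adjusted p = 0.0478), and AT4G01170, beside AT4G01180, with -0.46 (adjusted p = 0.0255). Both are named after their values were seen. AT4G01180 itself measured above 0 in every set, as the choice of genes required, opposite to the gene beside it.

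Genes with a symbol can be described by known roles. Of 1644 such genes 24 (1.46%) met the same conditions, beside 0.657% of the locus-named genes and 123 of 11448 unnamed probes (1.07%). As in the group itself, these values chose the genes and carry no test. Largest among them was MUTE, a bHLH regulator of stomatal precursors (1.19 ± 0.185, SD, n = 4), followed by GLC (0.90 ± 0.3) and by RR16, a cytokinin response regulator (0.85 ± 0.383). UGT73C1 and UGT85A5, of the glycosyltransferase family, measured 0.63 ± 0.151 and 0.55 ± 0.152, and AT5MAT, an acyltransferase of anthocyanins, 0.59 ± 0.158. YUC6, of auxin synthesis, measured 0.47 ± 0.14, and the sugar transporter family genes SWEET4 and SWEET13 0.42 ± 0.28 and 0.37 ± 0.158. NGA4, a B3-domain gene like REM25, measured 0.40 ± 0.0975, and SPL, needed to start sporocytes, 0.33 ± 0.0263, the lowest SD of the 24. Apart from MUTE and SPL, which are among the marker genes below, the genes described were named after their values were seen. Others of the 24 with sums of similar size, such as AOP3 (0.55 ± 0.118) and PUB22 (0.48 ± 0.196), are not described.

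Marker genes of other cell types that the tissue could hold moved in the same interval. By limma 2.5% of all features differed between day 3 and day 5, with 1.76% higher and 0.737% lower on day 5. Both measured genes of the stomatal lineage rose, MUTE with adjusted p = 5.17e-05 and FAMA, with 0.79, 0.61, 2.45 and 0.91 in sets 1 to 4, with adjusted p = 0.0221. MUTE and SPL were also among the 24 genes chosen on this contrast, so their tests repeat that choice. FAMA is not among the 24, although its d1 (0.051), d2+d3 (0.15) and d4+d5 (1.19, above 0 in every set) met the conditions. The condition left is the bar on values at 2 and -2, so a ratio of FAMA was likely cut off at a limit. Its high set 3 is also the set in which most of the 102 genes were highest, but those genes were barred from such values. Of the measured anther and tapetum genes 1 of 4 rose, SPL (adjusted p = 0.00021), while A9, AMS and EMS1 measured -0.059, -0.057 and 0.18. Of the green tissue genes 1 of 2 rose, RCA, which encodes rubisco activase (0.26, adjusted p = 0.0154), and LHCB4.1, of the light-harvesting complex, measured 0.16. The sums of the lists over sets ran from 1.59 to 3.86 for the stomatal lineage, from -0.043 to 0.93 for anther and tapetum and from 0.30 to 0.64 for green tissue. Of the lists for epidermis and cuticle, trichomes and vascular tissue 0 genes were matched to a named probe, so these cell types could not be followed. The part of any of these cell types in the rise of the 102 genes was not tested.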

How the data were processed

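The deposited table holds 1 log10 ratio per spot and array for 20 two-colour arrays. Per the labels' protocols, mRNA was amplified by in vitro transcription with amino-allyl UTP before dye coupling (Cy3 and Cy5). How background was corrected, how ratios were normalized, the log base and the numerator are not stated in the labels or the table (not given in the sources used here). Because they stop at 2 and -2, the deposited ratios were taken as log10, so the scale is the likely one. The limits do not tell which channel is the numerator, and Cy5 over Cy3 was assumed. The sign was changed where Cy3 held the later day, so the direction rests on that assumption. The limits were reached unevenly, by 436 to 827 values of an array at the upper one and 1 to 31 at the lower. Array medians between -0.012 and 0.0074 show values likely centred before deposit.

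Of 30741 spots, 547 control or unannotated ones were left out. Among 30194 probes 18740 had 1 gene name in the platform annotation, 18645 of them matched to RefSeq by gene ID, and 95 kept the older name. Probes of a gene were averaged, and a feature needed at least 3 of 4 arrays in every interval. Tests used limma 3.58.1 in R 4.3.3 on all 20 arrays, fitting 1 dye coefficient and 5 interval means (14 residual and 2.07 prior degrees of freedom), two-sided, adjusted by Benjamini-Hochberg over all features at 0.05. The fit was tested on simulated data with noise drawn independently for each array. RNA shared by arrays of adjacent intervals was not part of that simulation. Day 5 against day 3 (d4+d5), d5-d4, d3-d2 and the dye coefficient were tested. The set numbers mark tissue sets that the labels name, and residuals of arrays of 1 set in adjacent intervals had a median correlation of -0.083.

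The genes, lists and tests were chosen with earlier results of these data known. Genes named are the 12 largest d4+d5, members with a called d5-d4 or d3-d2 difference, those at the threshold and pairs of neighbours. Others are named as chosen after their values were seen. Planned classes by RefSeq product description were applied to the synonyms of the gene table, which described 1 gene of 102, and planned protein and promoter comparisons were not run. Alternatives changed the set block, the dye coefficient, the sets used, the array scale, the values at the limits, the filter and the conditions of the choice.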

Additional observations from a re-analysis of the deposited data

Results flagged for a closer look

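In 3 of 31 named genes 1 tissue set lay far from the other 3 in d4+d5, by Dixon's test at the 95% level, which flags about 1 in 20 such groups of 4 by chance. AT4G14090 measured 0.87 in set 2 and 0.74 to 0.76 in the others. AT1G10610 measured 0.65 in set 1 and 0.27 to 0.29 in the others. AT5G62350 measured 0.22 in set 4 and 0.35 to 0.36 in the others.

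The changes of the last 2 intervals differed by the test of their difference in 3 genes. The difference d5-d4 was 0.40 in AT5G23970, 0.46 in AT1G07473 and -0.35 in AT1G48660.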

How the results depend on the processing

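The number of genes that met the conditions stayed between 98 and 138 when 1 set was left out, and was 253 with d4+d5 at least 0.2, 52 with at least 0.4 and 53 with early bounds of 0.1. With the tissue set as a replicate block, 466 features in place of 716 were called for day 5 against day 3, 2 in place of 8 for d5-d4 and 0 in place of 5 for d3-d2 (1963 at an unadjusted p under 0.05). The block ended the call of AT1G48660 and of 0 other called members. With within-set values the counts were 66, 0 and 0 (4344, 922 and 1985 at an unadjusted p under 0.05 by limma), and 0 members were called for d5-d4. Without 1 set they were 263 to 486, 0 to 5 and 0 to 142, with 0 members called for d5-d4 (28 to 36 at an unadjusted p under 0.05) and 0 to 1 for d3-d2. With arrays scaled, d5-d4 had 5 calls and d3-d2 1, and d3-d2 had 2 without a dye coefficient, 14 with values at the limits missing and 8 above the median absolute ratio. Dye calls were 3721 to 10081 without 1 set, and 2 to 27 among members, with 11 members after scaling. The difference d5-d4 turned sign, uncalled, in AT4G23680 without 1 set (-0.20 to 0.022, above 0 without set 1 and, at 0.0015, without set 4) and in AT3G62820 without 1 set (-0.060 to 0.15, below 0 without set 1 and, at -0.048, without set 2) and with scaled arrays (-0.092). The causes were not tested. Among alternative values for single genes, 129 kept their direction and side of the threshold, 16 lost the call and 5 changed sign. Signal over background was not used here, so dim probes could not be set apart.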
